A study of Homo sapiens with 18 samples.

Results

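The control of RNA polymerase II pause release was followed through the mRNAs of 8 genes: the kinase gene CDK9, the cyclin T genes CCNT1 and CCNT2, the inhibitor genes HEXIM1 and HEXIM2, the 7SK RNA-binding protein genes LARP7 and MEPCE, and the scaffold gene AFF4. These 8 genes were picked by symbol, mapped to the Ensembl identifiers of the count tables, and all 8 were among the 14186 genes tested, of 58051 identifiers in all. RNA was measured by mRNA sequencing in hTERT RPE-1, a human retinal pigment epithelial line immortalised with telomerase. After growth with 10% serum, all cells spent 48 h at 0.1% serum and are labelled as G0/G1. They then received 50 µM etoposide for 30 min, a drug that traps topoisomerase II on cut DNA, or, in the arm that the titles call DMSO, no etoposide. Transcription was then stopped with 10 µM triptolide, which acts on the XPB subunit of TFIIH, and RNA was taken at time points 0, 20 and 40. The labels state neither the unit of these times nor whether triptolide was already present at 0. The 6 groups, etoposide at 0, 20 and 40 and DMSO at 0, 20 and 40, held 3 libraries each, numbered 1 to 3, of 18 in all.

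P-TEFb, the dimer of CDK9 with a cyclin T, phosphorylates the polymerase tail, DSIF and NELF and so releases paused RNA polymerase II into elongation. A large share of it is held inactive on the noncoding RNA 7SK, where HEXIM proteins inhibit the kinase, MEPCE caps the RNA end and LARP7 protects its tail. Agents that stop transcription or damage DNA are known to free P-TEFb from 7SK, and AFF4 then builds it into the super elongation complex.

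Total counts per library were 7957691 to 11580219. RNA levels are given as CPM, counts scaled to a library total of 1000000, so that an RNA is measured only against the other RNAs, and fewer expressing cells or less RNA per cell cannot be told apart. Of the 9 retinal pigment epithelium markers, only MITF and OTX2 exceeded 1 CPM in all 18 libraries, TTR had 0 counts, and TYR had at most 1 count. The 6 proliferation markers all exceeded 1 CPM in every library, and MKI67 had 163 to 456 CPM. Their summed level was 725 to 981 CPM with etoposide and 735 to 978 CPM with DMSO, and its part in the results was not tested. The 6 markers of blood cells were at 1.04 CPM or less in every library. The second DMSO library of time point 0 stood apart: genes annotated as antisense took 1.42% of its counts (exact 95% interval 1.41% to 1.43%, counting error only), against 0.217% to 0.253% in the other 17. At the loci of the 8 genes, its antisense counts were 54 for AC106864.1, which lies opposite LARP7, and 26 for AC138150.1, opposite HEXIM1, where the other 17 libraries had 0 to 1 and 4 to 19. Counts there of AC138150.2 opposite HEXIM2 (40) and of CCNT2-AS1 (8) lay within the ranges of the others, 24 to 63 and 4 to 15. BEST1, an epithelium marker, had 2452 CPM in that library and at most 18.4 CPM in the others. Whether the reads counted for it in that library came from BEST1 itself was not tested. Fitted log2 values of the 8 genes that use that library are therefore also given without it, while ratios, counts of pairs and medians of lists include it. The libraries of replicate 3 stood apart too, as described with AFF4.

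Short motifs in these transcripts are shown first, because the series concerns RNA stability and N6-adenosine methylation. AU-rich pentamers (ATTTA) and nonamers (TTATTTATT) mark many short-lived mRNAs, and GGACT is a frequent form of the site at which METTL3 and METTL14 methylate adenosine. HEXIM1 held 12 copies of GGACT in its transcript of 3600 bases, or 3.33 per kilobase. Among 12166 transcripts searched on the sense strand, 0.756% had at least that density, and the median was 0.930 per kilobase. The other 7 genes had 1 to 7 copies and 0.437 to 1.62 per kilobase. A match is a run of letters and was not measured as methylated. The HEXIM1 copy shown first starts at base 226 of the transcript. Before the stop codon, 5′ UTR and coding bases were not told apart. Shown are the first copies before the stop codon and in the 3′ UTR of HEXIM1, the first pentamer of its 3′ UTR, and the nonamers of CCNT2 and AFF4, with the motif in capitals:
HEXIM1 GGACT at chr17:45148717-45148741: ggtggcgccgGGACTttaacccctt
HEXIM1 GGACT in the 3′ UTR at chr17:45150292-45150316: ggggcaaaggGGACTttttacagtg
HEXIM1 pentamer at chr17:45150402-45150426: ggtttcgtaaATTTAgctatatgta
CCNT2 nonamer at chr2:134956974-134957002: tacaatgactTTATTTATTaaagggcagc
AFF4 upstream nonamer at chr5:132880741-132880769: aattgaaattTTATTTATTttaatttttt
AFF4 downstream nonamer at chr5:132877430-132877458: tatttccacaTTATTTATTaaattgatct
All are written 5′ to 3′ on the transcript, in T letters, from GENCODE 29 transcripts on GRCh38. HEXIM1 and CCNT2 lie on the plus strand and AFF4 on the minus strand.

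The pentamer was in the 3′ UTR of 70.6% of the searched transcripts and the nonamer, which contains a pentamer, in 8.70%. Pentamers numbered 20 in AFF4, 17 in CCNT2, 15 in CCNT1, 7 in HEXIM1, 2 in CDK9 and 1 in LARP7, in 3′ UTRs of 259 to 5680 bases. HEXIM2 and MEPCE had none in 3′ UTRs of 231 and 572 bases. Nonamers numbered 2 in AFF4 and 1 in CCNT2, and the other 6 genes had 0. These counts are given without a test against the RNA changes.

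Levels per length of merged exons put HEXIM1 first and HEXIM2 last. The mean over the 18 libraries was 29.3 CPM per kilobase for HEXIM1, 20.9 for CDK9, 19.8 for MEPCE, 11.9 for LARP7, 11.5 for AFF4, 5.95 for CCNT1, 3.33 for CCNT2 and 2.02 for HEXIM2. By merged exon length, 18 of 18 libraries agreed on 4 neighbours: HEXIM1 over CDK9, MEPCE over LARP7, AFF4 over CCNT1, and CCNT1 over CCNT2. CCNT2 was above HEXIM2 in 15 of 18. CDK9 was above MEPCE in 13 of 18 and LARP7 above AFF4 in 11 of 18, so these neighbours were not separated beyond their spread. For LARP7 the merged exons are 4083 bases and the principal transcript is 2286 bases. Another length could therefore change these orders, MEPCE over LARP7 among them, and none was tried. HEXIM1 stood at the 89.6th percentile of all tested genes in level per length, CDK9 at the 84.8th and HEXIM2 at the 30.7th.

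**Figure D1:**
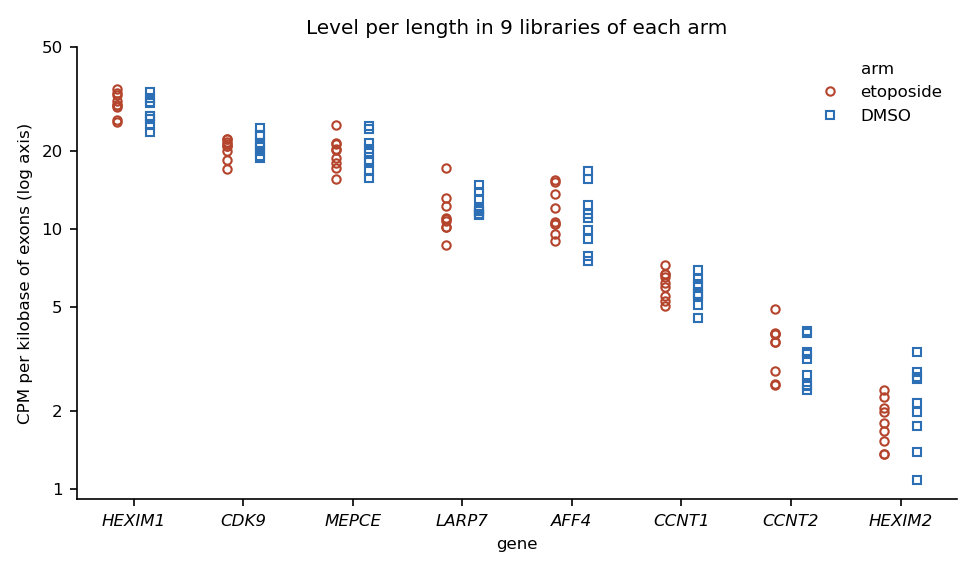
Level of each gene per length, as CPM per kilobase of merged exons on a log axis, with etoposide libraries as circles left of DMSO libraries as squares (9 libraries per arm, all time points). HEXIM1 was highest, between 23.6 and 34.4, and HEXIM2 lowest, between 1.09 and 3.37.

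None of the 8 genes passed the test in any of 10 comparisons. Calls were made with edgeR's quasi-likelihood test at a Benjamini-Hochberg adjusted p below 0.05 over all 14186 genes. The background was small. In the etoposide arm, 0.204% of all genes were called at 40 against 0, 0.0493% at 40 against 20 and 0% at 20 against 0. In the DMSO arm these shares were 0.423% at 40 against 0, 0.219% at 40 against 20 and 0% at 20 against 0. Etoposide against DMSO gave 0% at each of the time points 0, 20 and 40, as did the interaction, the change from 0 to 40 with etoposide minus that with DMSO. In those 4 comparisons, 378, 108, 139 and 190 genes had an unadjusted p under 0.05, DESeq2 called 3, 0, 1 and 0, and limma-voom called 0 in each. At time point 20 against 0, 142 genes with etoposide and 199 with DMSO had an unadjusted p under 0.05, and neither DESeq2 nor limma-voom called any. With 0.423% of genes called at most, 0 of 8 does not set the genes apart from the rest. limma-voom and DESeq2 also called 0 of the 8 in every comparison. In the main edgeR fit, an unadjusted p under 0.05 was reached by HEXIM2 in 4 comparisons and by HEXIM1 in 1 of them, DMSO at 40 against 0. Of all 14186 genes, 576 had such a p in that comparison and 375 with DMSO at 40 against 20. The p-values measure the spread between replicates that the labels call independent, without saying that these came from separate cultures.

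Same-numbered libraries deviated together, so a fit with the replicate number as a block was run beside the main one. With the replicate block, 143 genes were called at 40 against 0 in the etoposide arm (29 without it) and 173 in the DMSO arm (60 without it). It too called 0 of the 8 genes in every comparison. With the block, HEXIM1, HEXIM2, CCNT2, MEPCE and LARP7 each reached an unadjusted p under 0.05 by the edgeR test in at least 1 comparison. MEPCE had 0.0058 with DMSO at 40 over 0, where 1138 of all genes had a p under 0.05. CCNT2 had 0.0072 between arms at 0 (882 genes) and 0.0148 with etoposide at 40 over 0 (912 genes). An adjusted p above the threshold does not show that levels were alike, so intervals are given below. These intervals and their SEs are from the main fit, which ignores the pairing by replicate number, unless the block is named.

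**Figure D2:**
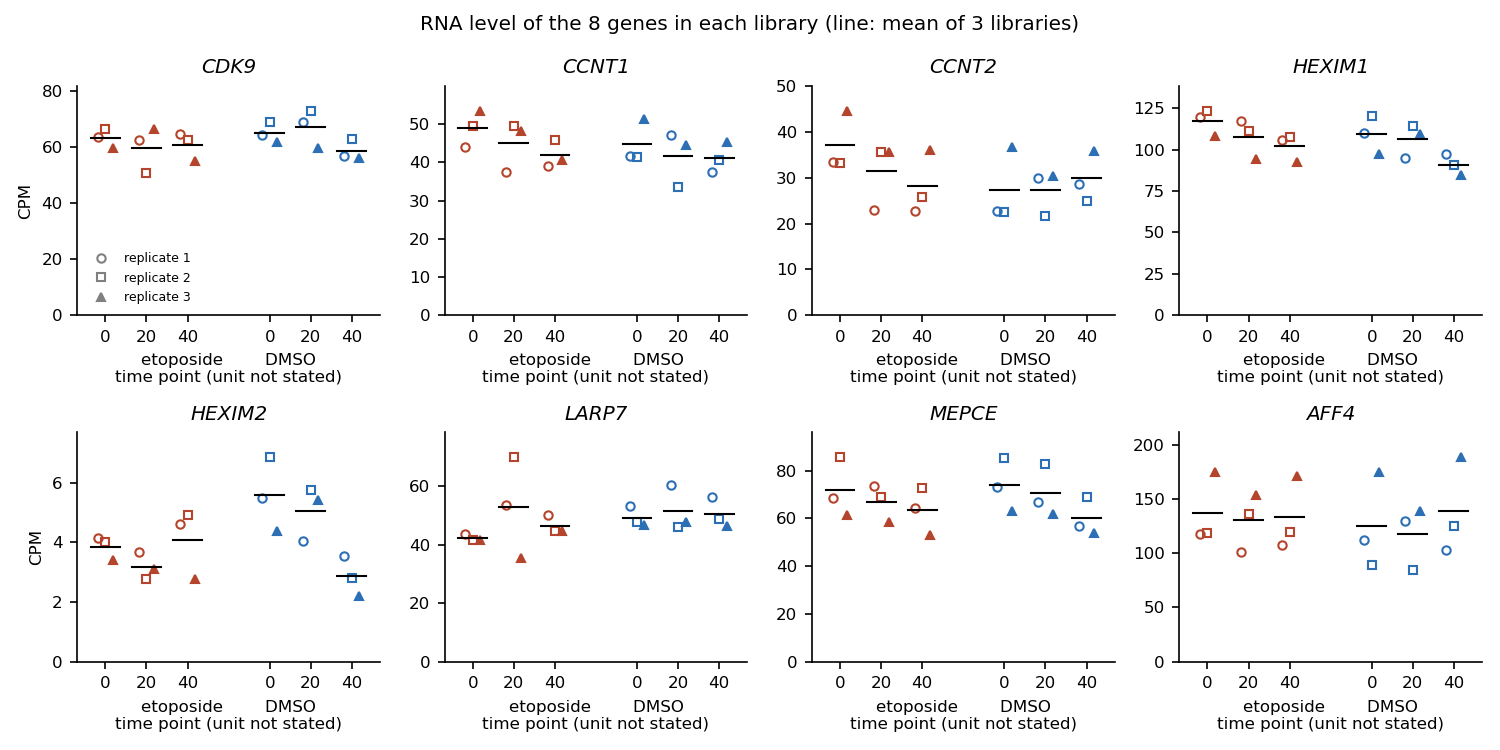
CPM of the 8 genes in every library, by time point within the etoposide arm (red, left) and the DMSO arm (blue, right). Symbols mark the replicate number and black lines the mean of 3 libraries. HEXIM2 in the DMSO arm had 2.21 to 3.54 CPM at 40 and 4.37 to 6.86 CPM at 0, and AFF4 and CCNT2 were highest in replicate 3 of every group.

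CDK9, the catalytic subunit of P-TEFb, had the smallest range of group means among the 8 genes, 0.20 in log2. With etoposide its level was 63.7, 66.6 and 59.8 CPM at 0, 62.5, 50.8 and 66.5 CPM at 20, and 64.9, 62.5 and 55.2 CPM at 40, in replicates 1 to 3. With DMSO it was 64.3, 68.9 and 62.0 CPM at 0, 69.0, 73.2 and 59.9 CPM at 20, and 57.1, 63.0 and 56.3 CPM at 40. The groups overlapped at all times, and the lowest library was the second of etoposide at 20. The log2 change at 40 over 0 was −0.06 with etoposide (SE 0.12, 95% interval −0.32 to 0.20) and −0.15 with DMSO (SE 0.12, −0.40 to 0.11). As a change in level, these intervals run from −19.65% to 14.9% with etoposide and from −24.4% to 8.06% with DMSO. Etoposide over DMSO at 0 was −0.04 (−0.30 to 0.22). CDK9 stood at −0.10 with DMSO at 40 over 0 once the second DMSO library of time point 0 was omitted, and the difference at 0 was then 0.0046.

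The cyclin T genes encode the subunits that activate CDK9 and, for CCNT1, the partner of the HIV Tat protein. CCNT1 averaged 49.1 ± 4.74, 45.0 ± 6.63 and 41.9 ± 3.53 CPM at 0, 20 and 40 with etoposide, and 44.7 ± 5.70, 41.7 ± 7.23 and 41.1 ± 3.87 CPM with DMSO (SD, n = 3 each). Its change at 40 over 0 was −0.23 with etoposide (−0.56 to 0.10) and −0.12 with DMSO (−0.45 to 0.21), or −0.18 with DMSO without the second library of time point 0.

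CCNT2 had 33.4, 33.2 and 44.7 CPM at 0, 22.9, 35.7 and 35.7 CPM at 20, and 22.7, 25.9 and 36.1 CPM at 40 with etoposide. With DMSO it had 22.7, 22.5 and 36.8 CPM at 0, 30.1, 21.8 and 30.4 CPM at 20, and 28.7, 25.0 and 36.0 CPM at 40. Within each replicate number, CCNT2 was higher with etoposide than with DMSO at 0, yet the groups as wholes overlapped, with replicate 3 high in both. That difference was 0.44 in log2 (SE 0.25, −0.08 to 0.96, edgeR adjusted p = 1.0), and 0.32 without the second DMSO library of time point 0. At 40 over 0 it stood at −0.40 with etoposide (SE 0.25, −0.92 to 0.13) and 0.13 with DMSO (SE 0.25, −0.40 to 0.65). The difference between these changes was −0.52 (SE 0.35, −1.26 to 0.22, edgeR adjusted p = 1.0). Without the second DMSO library of time point 0, the DMSO value was 0.01 and the difference between the changes −0.40. With the replicate block and all 18 libraries, CCNT2 at 40 over 0 was −0.405 with etoposide (SE 0.15, edgeR adjusted p = 0.462). With DMSO it was 0.14 (SE 0.155, edgeR adjusted p = 0.931). The blocked difference between the changes was −0.55 (SE 0.22, edgeR adjusted p = 0.9915). That between arms at 0 was 0.46 (SE 0.15, edgeR adjusted p = 0.755).

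HEXIM1, the inhibitor that holds P-TEFb on 7SK, is widely read out as an mRNA that responds to P-TEFb release. With etoposide it had 120, 124 and 108 CPM at 0, 117, 111 and 94.3 CPM at 20, and 106, 108 and 92.8 CPM at 40. With DMSO it had 110, 121 and 97.4 CPM at 0, 94.9, 114 and 109.7 CPM at 20, and 97.4, 90.5 and 85.0 CPM at 40. At 40, each library was lower than the same-numbered library at 0 in both arms. With etoposide every library at 40 was below every library at 0, while in the DMSO arm the ranges met at 97.4 CPM. How many of all genes were so separated was not counted, and 17.7% were lower in all 3 same-numbered pairs with etoposide.

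The log2 change of HEXIM1 at 40 over 0 was −0.20 with etoposide (SE 0.12, −0.45 to 0.06) and −0.27 with DMSO (SE 0.12, −0.52 to −0.01). The DMSO value had an unadjusted p of 0.0423 and an edgeR adjusted p of 1.0, and it was −0.19 without the second DMSO library of time point 0. As a change in HEXIM1 level, the lower bounds are −27.0% with etoposide and −30.4% with DMSO. The interaction was 0.07 (SE 0.17, −0.29 to 0.43), and −0.01 without that library. Etoposide over DMSO was 0.10 at 0 (−0.16 to 0.36, and 0.18 without that library), 0.02 at 20 (−0.24 to 0.27) and 0.17 at 40 (−0.09 to 0.42). All 3 same-numbered pairs were higher with etoposide at 0 and at 40.

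HEXIM2, the paralog that can stand in for HEXIM1 on 7SK, gave the largest differences among the 8 genes and the fewest counts, 21 to 64 per library. With etoposide it had 4.16, 4.02 and 3.39 CPM at 0, 3.67, 2.79 and 3.11 CPM at 20, and 4.60, 4.91 and 2.77 CPM at 40. With DMSO it had 5.50, 6.86 and 4.37 CPM at 0, 4.04, 5.75 and 5.41 CPM at 20, and 3.54, 2.82 and 2.21 CPM at 40. In the DMSO arm every library at 40 was below every library at 0, and at 0 and at 20 every etoposide library was below every DMSO library. The share of all genes separated this way was not counted. Such genes are among those lower in all 3 same-numbered pairs, which were 14.6% for DMSO at 40 against 0. Between arms these were 18.1% at 0 and 7.79% at 20.

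At 40 over 0 the log2 change of HEXIM2 was 0.09 with etoposide (SE 0.27, −0.48 to 0.66) and −0.96 with DMSO (SE 0.27, −1.53 to −0.39). The DMSO value had an unadjusted p of 0.0027 and did not pass (edgeR adjusted p = 0.282). Blocking on the replicate number gave an edgeR adjusted p of 0.0677. Of all tested genes, 2.65% had a log2 value that low or lower. Without the second DMSO library of time point 0, where HEXIM2 was highest, the HEXIM2 value was −0.78 (edgeR adjusted p = 1.0). At 40 over 20 the DMSO arm gave −0.82 (SE 0.27, edgeR adjusted p = 0.832).

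The interaction for HEXIM2 was 1.05 (SE 0.38, 0.24 to 1.85), with an unadjusted p of 0.0141 and an edgeR adjusted p of 1.0. Etoposide over DMSO was −0.53 at 0 (−1.10 to 0.03), −0.66 at 20 (−1.24 to −0.09, unadjusted p = 0.0252) and 0.52 at 40 (−0.06 to 1.09), each with an edgeR adjusted p of 1.0. Without the second DMSO library of time point 0, the interaction was 0.87 and the difference at 0 was −0.36. An antisense gene lies at this locus. AC138150.2 shares 1026 exonic bases with HEXIM2 on the opposite strand and had 24 to 63 counts per library, about as many as HEXIM2 itself. Whether the counting used strand is not given in the sources used here, so it is not known if reads of the pair were kept apart. The libraries were of a stranded kind, with an antisense share of 0.217% to 0.253% in 17 of them. What that share says of the counting was not tested. At 40 over 0, AC138150.2 stood at 0.11 with etoposide (SE 0.29) and −0.19 with DMSO (SE 0.29).

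The 2 HEXIM genes can be set against each other within a library. Per length, HEXIM1 was 16.4, 17.4 and 18.03 times HEXIM2 at 0, 18.1, 22.6 and 17.1 times at 20, and 13.1, 12.4 and 19.0 times at 40 with etoposide. With DMSO the ratio was 11.4, 9.96 and 12.6 at 0, 13.3, 11.3 and 11.5 at 20, and 15.6, 18.2 and 21.7 at 40. All 3 etoposide ratios exceeded all 3 DMSO ratios at 0 and at 20, and in the DMSO arm the ratios at 40 exceeded those at 0. Each of these differences (0.62, 0.68 and 0.70 in log2) reached p = 0.1 in a two-sided exact permutation test, the smallest p that 3 against 3 libraries allow. Adjusted over the 25 ratio comparisons made, that p was 0.568. HEXIM1 plus HEXIM2 over CDK9 was 1.498 ± 0.04 at 40 and 1.63 ± 0.04 at 0 with etoposide, and 1.36 ± 0.13 at 40 and 1.52 ± 0.10 at 0 with DMSO (SD, n = 3 each).

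**Figure D3:**
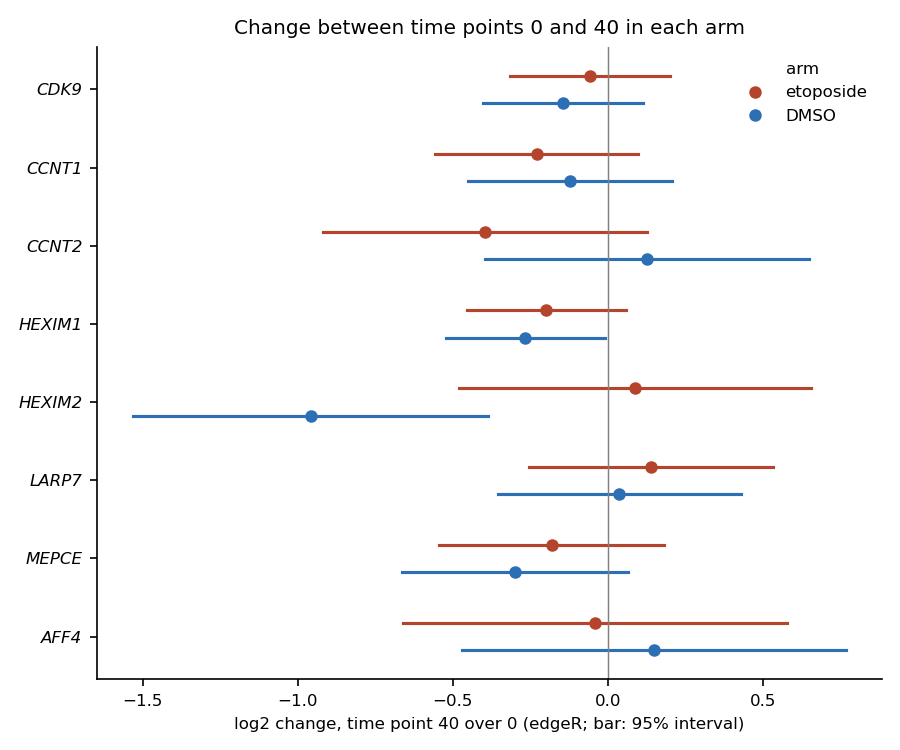
The log2 change at time point 40 over 0 for each gene, with etoposide in red above DMSO in blue. Points are edgeR estimates of the main fit, without the replicate block, and bars are their 95% intervals. The DMSO bars of HEXIM2 (−1.53 to −0.39) and HEXIM1 (−0.52 to −0.01) lie below 0, and the other 14 bars include 0.

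The 7SK RNA itself could not be followed. RN7SK (chromosome 6, 52995621 to 52995948) had 0 counts in all 18 libraries, which allows up to 3 counts, or 0.259 to 0.377 CPM, per library (counting error only). Libraries were made from polyadenylated RNA, and 7SK has no poly(A) tail, but whether this gave the 0 counts was not tested. Of 293 annotated 7SK pseudogenes, 26 had a count, 0 were tested, and their summed counts were 5 to 30 per library.

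LARP7 and MEPCE encode the constant protein partners of 7SK. LARP7 had 43.6, 41.5 and 41.5 CPM at 0, 53.6, 69.8 and 35.2 CPM at 20, and 50.1, 44.6 and 44.7 CPM at 40 with etoposide. With DMSO it had 53.2, 47.7 and 46.6 CPM at 0, 60.3, 45.9 and 47.7 CPM at 20, and 56.3, 48.6 and 46.4 CPM at 40. Its highest and its lowest library both belonged to etoposide at 20, and at 0 every etoposide library was below every DMSO library. How many of all genes were so separated was not counted, and 18.1% were lower with etoposide in all 3 same-numbered pairs at 0.

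LARP7 at 40 over 0 was 0.14 with etoposide (SE 0.19, −0.25 to 0.53) and 0.04 with DMSO (SE 0.19, −0.36 to 0.43). At 0, etoposide over DMSO was −0.22 (SE 0.19, −0.61 to 0.17, edgeR adjusted p = 1.0). LARP7 was 0.02 with DMSO at 40 over 0 when the second DMSO library of time point 0 was left out, and the difference at 0 was −0.24. MEPCE averaged 71.8 ± 12.5, 67.0 ± 7.57 and 63.3 ± 9.84 CPM at 0, 20 and 40 with etoposide, and 73.8 ± 11.2, 70.5 ± 11.1 and 59.9 ± 8.06 CPM with DMSO. Its change at 40 over 0 was −0.18 with etoposide (SE 0.17, −0.55 to 0.18) and −0.30 with DMSO (SE 0.17, −0.66 to 0.06), and −0.18 with DMSO when the second DMSO library of time point 0 was left out. In each arm, all 3 same-numbered pairs of MEPCE were lower at 40. With the replicate block and all 18 libraries, MEPCE was −0.18 with etoposide (SE 0.10, edgeR adjusted p = 0.876). With DMSO it was −0.30 (SE 0.10, edgeR adjusted p = 0.258).

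AFF4, the scaffold of the super elongation complex, varied more with the replicate number than with group. With etoposide it had 118, 118 and 175 CPM at 0, 101, 136 and 154 CPM at 20, and 108, 120.0 and 171 CPM at 40. With DMSO it had 112, 88.9 and 175 CPM at 0, 129, 84.6 and 139 CPM at 20, and 103, 125 and 189 CPM at 40. Replicate 3 was the highest library in 6 of 6 groups. AFF4 at 40 over 0 was −0.04 with etoposide (SE 0.29, −0.66 to 0.58) and 0.15 with DMSO (SE 0.29, −0.47 to 0.77). In the main fit these were the widest intervals of the 8 genes in both arms. With the replicate block the SE of AFF4 was 0.15 in each arm. Without the second DMSO library of time point 0, the DMSO value was −0.05.

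The same split by replicate number ran through other genes of the set. CCNT2 was highest in replicate 3 in 6 of 6 groups, with a median log2 ratio to the mean of the other libraries of 0.42, against 0.58 for AFF4. MEPCE was lowest in replicate 3 in 6 of 6 groups (median −0.31), and CDK9 and HEXIM1 in 5 of 6 (−0.11 and −0.19). The 6 group means spanned 0.24 in log2 for AFF4 and 0.44 for CCNT2. Replicate numbers are crossed with the groups, so this split does not favour a group. Among the partner genes, BRD2 had 6.43 to 13.5 CPM in replicate 3 and 65.6 to 125 CPM in the others, NELFE 0 to 10.3 and 55.7 to 84.1 CPM, and CDK7 0.105 to 3.21 and 19.2 to 34.3 CPM.

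**Figure D4:**
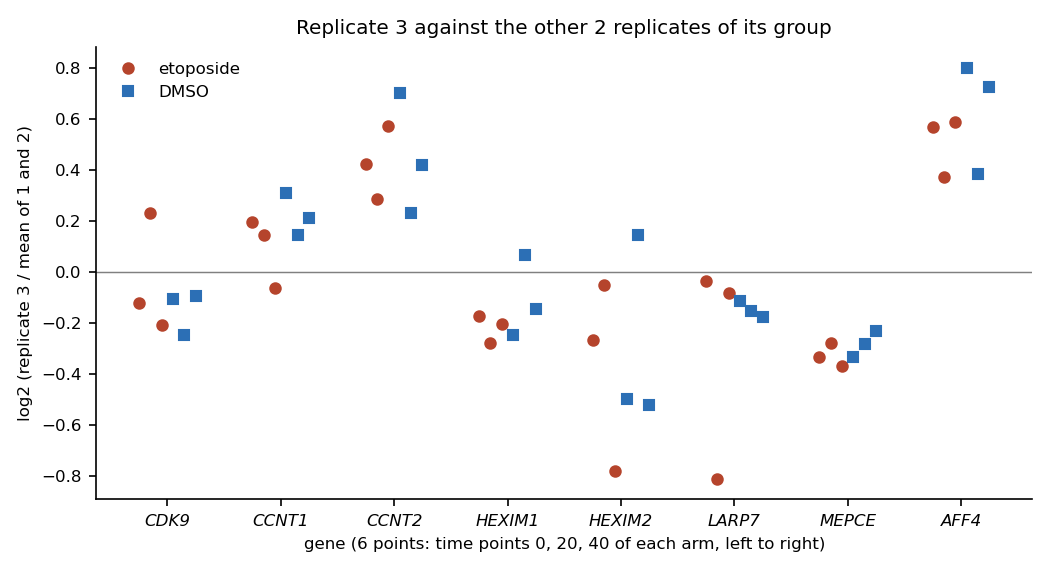
The log2 ratio of replicate 3 to the mean of replicates 1 and 2 in each of the 6 groups, for every gene (etoposide circles left of DMSO squares). AFF4 and CCNT2 lie above 0 and MEPCE below 0 in 6 of 6 groups.

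Direction within same-numbered pairs was counted against all genes. At 40 against 0 with etoposide, CCNT1, CCNT2, HEXIM1 and MEPCE were lower in all 3 pairs, as were 17.7% of all genes, and LARP7 was higher, as were 18.2%. With DMSO, CDK9, CCNT1, HEXIM1, HEXIM2 and MEPCE were lower in all 3 pairs, against 14.6% of all genes, and 0 of 8 were higher, against 12.6%. For etoposide against DMSO at 0, CDK9, HEXIM2 and LARP7 were lower (18.1% of all genes) and CCNT1, CCNT2 and HEXIM1 higher (16.0%). At 20, HEXIM2 was lower (7.79%) and 0 of 8 were higher (7.91%). At 40, LARP7 was lower (11.8%) and HEXIM1 and HEXIM2 higher (13.4%). The 3 comparisons between arms use separate libraries. Those over time share the libraries of time point 0 with the comparison between arms at 0. They share the libraries of time point 40 with the comparison between arms at 40.

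The median log2 change of the 8 genes at 40 over 0 was −0.12 with etoposide (6 of 8 negative) and −0.13 with DMSO (5 of 8 negative), while the median of all genes was 0.00 and 0.01. For scale, 14 early-response genes, which are induced quickly and have short-lived mRNAs, had medians of −1.14 with etoposide and −2.20 with DMSO. This list was chosen with earlier results of these data known, so it gives a scale and no test. Of the 14 genes, 4 fell with etoposide and 7 with DMSO by edgeR, and 8 and 12 with the replicate block. Of all 14186 genes, edgeR called 0.204% and 0.423%, and with the block 143 and 173 genes. SOCS3, a feedback inhibitor of cytokine signalling, averaged 5.58 ± 0.87 CPM at 40 and 25.8 ± 3.78 CPM at 0 with etoposide, and 2.73 ± 0.65 CPM at 40 and 24.4 ± 4.90 CPM at 0 with DMSO. Its changes were −2.21 (SE 0.21, edgeR adjusted p = 4.97e-05) and −3.15 (SE 0.22, edgeR adjusted p = 9.06e-07). Among the genes with nonamers, CCNT2 stood at −0.40 with etoposide and 0.13 with DMSO, and AFF4 at −0.04 and 0.15. Of the genes with no pentamer, HEXIM2 stood at 0.09 with etoposide and −0.96 with DMSO, and MEPCE at −0.18 and −0.30. Without the second DMSO library of time point 0, the DMSO values were 0.01 for CCNT2, −0.05 for AFF4, −0.78 for HEXIM2 and −0.18 for MEPCE. A relation of motifs to these changes was not tested.

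**Figure D5:**
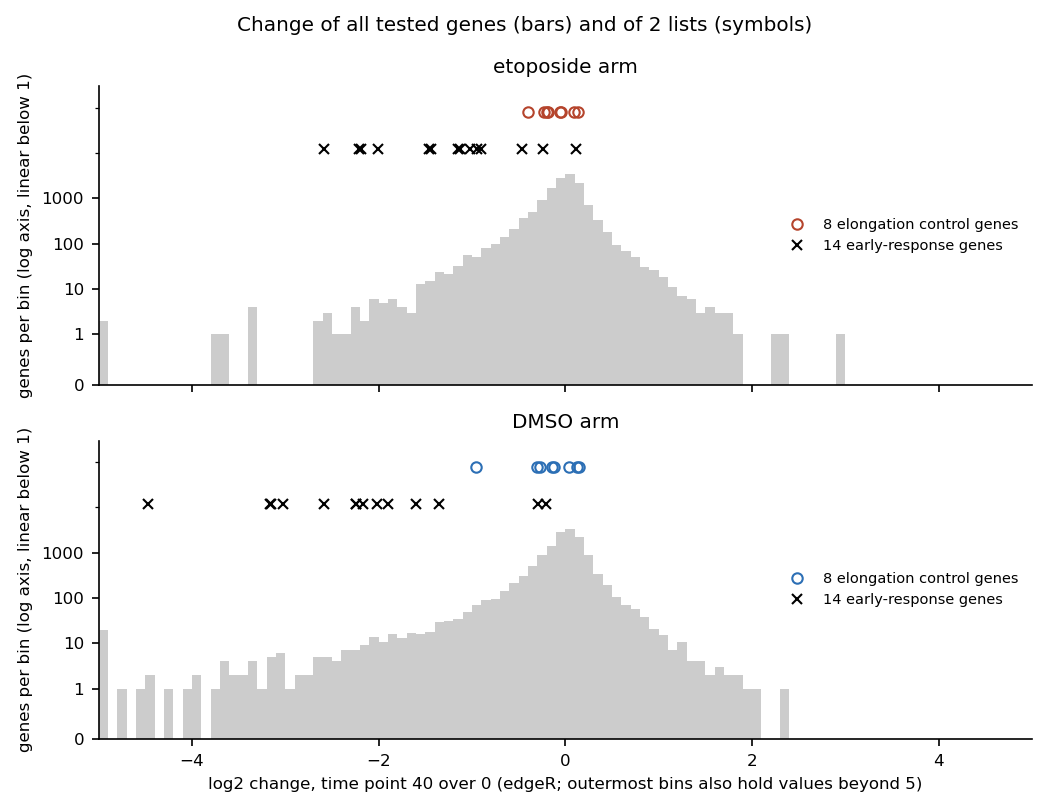
Distribution of the log2 change at 40 over 0 of all 14186 tested genes (grey bars, number of genes per bin on a log axis that is linear below 1), with etoposide above DMSO. Circles are the 8 genes and crosses 14 early-response genes. The circles lie between −0.40 and 0.14 with etoposide and between −0.96 and 0.15 with DMSO, while crosses reach −2.59 and −4.47. These are ZFP36 (SE 0.57, edgeR adjusted p = 0.116) and IER3 (SE 1.8, edgeR adjusted p = 0.891). Neither was called in the main fit, and both were with the replicate block. IER3 had at most 5.4 CPM in replicates 1 and 2 and at most 0.19 CPM in replicate 3.

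Other genes of the pathway gave 0 calls in all lists by edgeR at 40 against 0, in either arm. Partners of AFF4 in the super elongation complex (7 of 9 tested) had medians of −0.09 with etoposide and −0.01 with DMSO. EAF1, which binds the ELL elongation factors, stood at −0.40 with etoposide (SE 0.20) and −0.43 with DMSO (SE 0.20), both with an edgeR adjusted p of 1.0. ELL stood at −0.37 with etoposide (SE 0.21), and AFF3, a relative of AFF4, at 0.22 with DMSO (SE 0.19). Genes that recruit or release P-TEFb (10 of 10 tested) had medians of −0.08 and −0.07. JMJD6, a JmjC-domain protein gene, stood at −0.36 (SE 0.21) with etoposide and −0.26 (SE 0.21) with DMSO. BRD2, a bromodomain protein gene, passed with the replicate block in the DMSO arm (log2 −0.56, SE 0.12, edgeR adjusted p = 0.0200), against −0.49 (SE 1.30) without it, and its counts in replicate 3 were low, as given above.

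The pause factors DSIF and NELF, on which P-TEFb acts, had medians of 0.09 with etoposide and −0.03 with DMSO (6 of 6 tested). NELFB stood at 0.17 with etoposide (SE 0.14) and NELFA at −0.27 with DMSO (SE 0.17), both with an edgeR adjusted p of 1.0. The PAF1 complex had 0.10 and 0.07 (6 of 6), other elongation factors 0.07 and 0.04 (8 of 8), other transcription kinases and cyclins −0.01 and 0.08 (9 of 9), and RNA polymerase II subunits 0.07 and −0.04 (11 of 12). The hnRNP genes whose proteins take up 7SK when P-TEFb leaves it had −0.00 and 0.05 (4 of 4).

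The genes most like HEXIM1 over the 18 libraries were found by Pearson correlation of log2 CPM, after the mean of each replicate number had been subtracted, among 10813 genes with at least 5 CPM on average. Among them were DNAJB1 (r = 0.86), PNRC1 (0.85), CEBPB (0.84) and DLX1 (0.84). These libraries share time points and arms, so the values are a description. MEPCE was the closest of the other 7 genes, with r = 0.74 and rank 73, followed by HEXIM2 at 0.58, which averaged under 5 CPM and was not ranked. CDK9 had 0.19, CCNT1 0.14, CCNT2 0.03, LARP7 −0.27 and AFF4 −0.43.

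In GRCh38 coordinates of GENCODE 29, CDK9 (ENSG00000136807) lies at chromosome 9, 127785679 to 127790787, CCNT1 (ENSG00000129315) at chromosome 12, 48688458 to 48716998, and CCNT2 (ENSG00000082258) at chromosome 2, 134918235 to 134959342. HEXIM1 (ENSG00000186834) and HEXIM2 (ENSG00000168517) are neighbours on chromosome 17, at 45148502 to 45152101 and 45160700 to 45170040. LARP7 (ENSG00000174720) lies at chromosome 4, 112636964 to 112657592, MEPCE (ENSG00000146834) at chromosome 7, 100428790 to 100434126, and AFF4 (ENSG00000072364) at chromosome 5, 132875379 to 132963634. MEPCE shares 203 exonic bases with ZCWPW1 (12 to 37 counts), LARP7 32 with ZGRF1 and 302 with AC106864.1, HEXIM1 520 with AC138150.1 and CCNT2 148 with CCNT2-AS1, all on the opposite strand.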

How the data were processed

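The values deposited by the authors are raw gene counts, 1 table a library. The submitters' processing notes name bcl2fastq, HISAT2, featureCounts and GRCh38 (hg38). For versions, annotation and strand setting, nothing was given in the sources used. Per the labels' protocols, RNA was purified with RNeasy, treated with TURBO DNA-free and made into TruSeq Stranded mRNA libraries. Identifiers were named by GENCODE 29, which held 57447 of 58051.

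edgeR 4.0.16 (R 4.3.3, robust quasi-likelihood fit) was run on all 18 libraries with 6 group means and TMM factors of 0.978 to 1.02. Genes passing filterByExpr numbered 14186 and held 99.84% of counts. Adjusted p-values are Benjamini-Hochberg values over those genes. SE was derived from the F statistic, and 95% intervals from SE and the moderated degrees of freedom. The pipeline was tested on simulated data. CPM uses the same factors. Ratios were tested by exact permutation (scipy 1.17.1). Motifs were searched on the sense strand of the principal transcript. For the counts of direction and the replicate block, same-numbered libraries were treated as pairs. This was done because all 45 pairs correlated over genes (r 0.359 to 0.911, minimum set 0.1), against −0.785 to 0.63 for 90 other pairs. Group means had been subtracted first, so the values of the 90 pairs depend on those of the 45. All pairs come from the same 18 libraries. The main fit ignored the pairing by replicate number.

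The 8 genes and all lists were chosen with earlier results of these data known. The rule named all 8 genes, called list members or else the 2 with the largest change of each list at 5 CPM or more, and the 5 genes most like HEXIM1. Of the longer lists, examples are given, and 1 gene most like HEXIM1 is not reported here. Alternatives were limma-voom (limma 3.58.1), DESeq2 1.42.0, other scalings and filters, the replicate block, the compared groups alone and leaving out libraries.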

Additional observations from a re-analysis of the deposited data

How the results depend on the processing

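Under 31 alternatives (other scalings, filters and tools, the replicate block, the compared groups alone, each of 18 libraries and each replicate number left out), 0 of the 8 genes were called in any of 310 counts. The lowest adjusted p was 0.0677, for HEXIM2 in the DMSO arm at 40 against 0 with the replicate block. Of 80 log2 values, 35 kept their sign in all alternatives and 45 changed it in at least 1, none of these above 0.24 in size in the main analysis. HEXIM2 at 40 over 0 with DMSO ranged from −1.15 to −0.76, HEXIM1 from −0.34 to −0.18. For the interaction, housekeeping scaling shifted the median of all genes by −0.11. The replicate block left HEXIM2 at −0.96. Counts over all genes moved more: at 40 against 0 with etoposide (29), the block gave 143, DESeq2 68 and the compared groups alone 6. Leaving out etoposide replicate 1 gave 13 at time point 0, and replicates 1, 2 and 3 gave 12, 12 and 17 at 40. Without replicate number 1 or 2 in all groups it was 0 and 5. With DMSO (60), the block gave 173, DESeq2 108, the compared groups alone 12, and leaving out DMSO replicate 1 or 2 gave 34 and 35 at time point 0 and 27 and 31 at 40. Without replicate number 1 or 2 in all groups it was 2 and 8. At 40 against 20, the block gave 69 with etoposide and 110 with DMSO, DESeq2 27 and 60, and the compared groups alone 0 and 8, where the main analysis gave 7 and 31. With etoposide, 12 were called there with no filter on low counts and 4 with at least 10 counts in every library. Also at 40 against 20 with etoposide, 4 were called without etoposide replicate 1 at 20, etoposide replicate 2 or 3 at 40, DMSO replicate 2 at 0 or DMSO replicate 2 at 40, and 12 without DMSO replicate 3 at 40. With DMSO, 20 were called without DMSO replicate 1 at 20, and 15 and 12 without DMSO replicates 1 and 2 at 40. Without replicate number 1, 2 or 3 in all groups, 0, 1 and 17 were called with etoposide and 1, 1 and 41 with DMSO. The causes were not tested. HEXIM2 had 21 to 64 counts a library and an SE of 0.27 in log2 at 40 over 0, and AFF4 had 778 to 2060 counts and an SE of 0.29.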
